A study of Mus musculus with 24 samples.

Results

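The Sfmbt2 cluster is a family of mouse miRNA numbered miR-297, miR-466, miR-467 and miR-669, and its levels were followed here in the plasma of mice that inhaled particles carrying environmentally persistent free radicals (EPFR). Its members were taken as every mouse miRNA probe of the panel whose name carries 1 of these 4 numbers, in any form or arm. This gave 33 of the 566 mouse miRNA probes, which name 39 miRNA because 4 probes read several near-identical miRNA at once. By number, 12 probes read miR-466 forms, 9 read miR-669 forms, 7 read miR-467 forms and 3 read miR-297 forms, while 2 probes join forms of different numbers (miR-467h with miR-669d and miR-669l, and miR-297a with miR-466f and miR-669b).

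Plasma was taken from 24 male mice of the inbred strain C57BL/6J, aged 20 weeks by the sample labels. There were 8 mice in each of 3 groups, and each sample was 1 mouse without pooling. The filtered air group breathed clean air, the EPFR lo group breathed particles of lower radical content and the EPFR group breathed particles of higher radical content, at a labelled 250 µg per cubic meter, for 4 h per day over 5 days. The methods of the study state another particle mass and a range of ages, so both are given here only as labelled. RNA purified from 200 µL of plasma, about 10 ng per mouse, was counted on the nCounter mouse miRNA panel, in which each miRNA is ligated to a tag and single color-coded probes are counted without amplification.

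A miRNA is a short RNA that guides Argonaute proteins to messenger RNA, mainly through its seed, the bases near its 5′ end. Sfmbt2 encodes a Polycomb-group protein and is imprinted in the mouse, where it is active from the paternal allele in extraembryonic tissue and needed for the placenta. One of its introns holds a large array of miRNA that arose by local duplication and is known from rodents. Many of these miRNA are rich in alternating G and U or A and C, so their sequences resemble each other and simple repeats of the genome.

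The mouse annotation of RefSeq (assembly GRCm38.p6) placed 72 miRNA hairpins inside Sfmbt2, and all 72 carry 1 of the 4 numbers. Not every member is part of that array, however. Of the 33 probes, 25 read miRNA whose annotated copies lie only inside Sfmbt2 (miR-466a-3p and miR-466a-5p, each read by a joined probe, were not matched to a position by name and their probes were placed by the other miRNA), 5 read miRNA placed only elsewhere (miR-466i, miR-466j, miR-466k, miR-467f and miR-467g) and 3 read miRNA with copies in both kinds of place. The cluster name therefore describes most of these probes by position and the other 5 by number alone.

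RefSeq sequences were matched to 5 of the 39 miRNA names, all of them copies outside Sfmbt2. They are shown because they display the repeat-like sequence of these 5 miRNA, whose seeds can be compared. Each is written 5′ to 3′ with the seed (bases 2 to 8) in capitals.
miR-466j: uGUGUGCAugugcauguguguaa
miR-466k: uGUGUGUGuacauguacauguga
miR-467f: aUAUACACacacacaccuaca
miR-467g: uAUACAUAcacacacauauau
miR-467h: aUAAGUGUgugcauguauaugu

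These lie at chr10:60960802-60960824 (plus strand, miR-466j), chr3:85467396-85467418 (plus strand, miR-466k), chr11:69635419-69635439 (minus strand, miR-467f), chr5:34732872-34732892 (minus strand, miR-467g) and chr9:115381898-115381919 (plus strand, miR-467h) of GRCm38.p6. The 5 seeds differ from each other, and that of miR-467h was found in 2 mature miRNA of the table. Within the mature sequences, miR-466j, miR-466k and miR-467h hold alternating G and U runs of 7, 9 and 7 bases, whereas miR-467f and miR-467g hold alternating A and C runs of 12 and 9 bases. The motif GUGUGU, read on the miRNA strand only, occurred in 17 of 1679 mature mouse miRNA of the table (1.01%), and ACACAC in 11 (0.655%). miR-467h was measured only through the probe it shares with miR-669d and miR-669l.

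The mice gave 8418 to 30483 counts of mouse miRNA each, of which the 33 members took 372 to 861. The red blood cell miRNA miR-451 (mean 3921 counts), miR-16 (615) and miR-486 (121) and the leukocyte and platelet miRNA miR-223 (91.4) were clearly above background, and liver miR-122 (33.4) was just below the limit used here. The ligation controls, which report how well miRNA were tagged, averaged 2286 counts in filtered air mice, 4119 in EPFR lo mice and 5134 in EPFR mice, and their part in the results was not tested. The 4 housekeeping mRNA, whose counts set the main scaling, averaged only 10.96 to 17.9 counts, and 3 mice had all 4 at or below the negative controls.

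Averaged over the 24 mice, the members were measured at the level of the background. Background was read from 8 negative-control probes with no target in the sample. The limit was set 2 SD of their single counts above their mean, at 34.1 counts. It was applied to each probe's average raw count in all 24 mice. Such averages vary less than single counts, so the limit is strict, and miR-466g (29.7) lay below it though above all 8 negative-control means. Under this limit 0 of 33 members lay above background, against 41 of all 566 mouse miRNA (7.24%). The mean counts of members ran from 7.88 to 29.7 with a median of 15.8, the negative controls ran from 10.96 to 29.0 with a median of 15.1, and 33 probes for viral miRNA ran from 6.46 to 22.2 with a median of 13.8. A higher mean than every viral probe was seen for 8 members. The lowest of these, miR-669j, ranked 83 among all 566 mouse miRNA, so most miRNA with such means were not members. Still, 8 of 33 members is a larger share than about 83 of all 566, a difference that was not tested.

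The members with the highest means were miR-466g (29.7 counts, 12 to 52 over the mice), miR-467a (27.2, 16 to 39), miR-669o (26.5, 7 to 64), miR-297c (26.1, 9 to 53), miR-467b (24.8, 11 to 39) and miR-669h-5p (24.1, 12 to 52). miR-466j, which lies outside Sfmbt2, followed at 24.0 counts. The ranges of these 7 members overlapped widely. All 7 were counted in the same mice, so overlapping ranges do not settle their order, and their order within mice was not tested. Counts of different probes also depend on how well each probe binds, and no length or efficiency correction was available to set one member above another.

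By position, the median of the mean counts was 15.8 for the 25 probes placed only inside Sfmbt2 and 15.1 for the 5 placed only elsewhere. Within single mice, 39 of 792 member values (4.92%) exceeded the mouse's own limit, against 7.18% of all mouse miRNA values and 0.379% of viral probe values. miR-669o exceeded it in 8 of 24 mice, miR-466g in 7, and miR-467a and miR-297c in 6 each. Such values were concentrated in the mice numbered 5 to 8, as given with the sets of replicates below.

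Several members have known roles in mouse cells, and all of these were low in plasma. miR-669a, which restrains the muscle regulator MyoD in mouse heart progenitors, ranged over 8 to 21 counts with filtered air (median 13), 8 to 26 with EPFR lo (median 14) and 8 to 17 with EPFR (median 14). miR-466l, which was described to protect the messenger RNA of the anti-inflammatory cytokine IL-10 in mouse macrophages, was the lowest member, with 2 to 14 counts with filtered air (median 8), 5 to 12 with EPFR lo (median 8.5) and 3 to 12 with EPFR (median 6.5). miR-466h, linked to cell death under glucose deprivation in rodent cells, had 7 to 14 counts with filtered air (median 10.5), 5 to 16 with EPFR lo (median 7) and 4 to 13 with EPFR (median 9.5). The 3 groups overlapped for each of them.

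**Figure D1:**
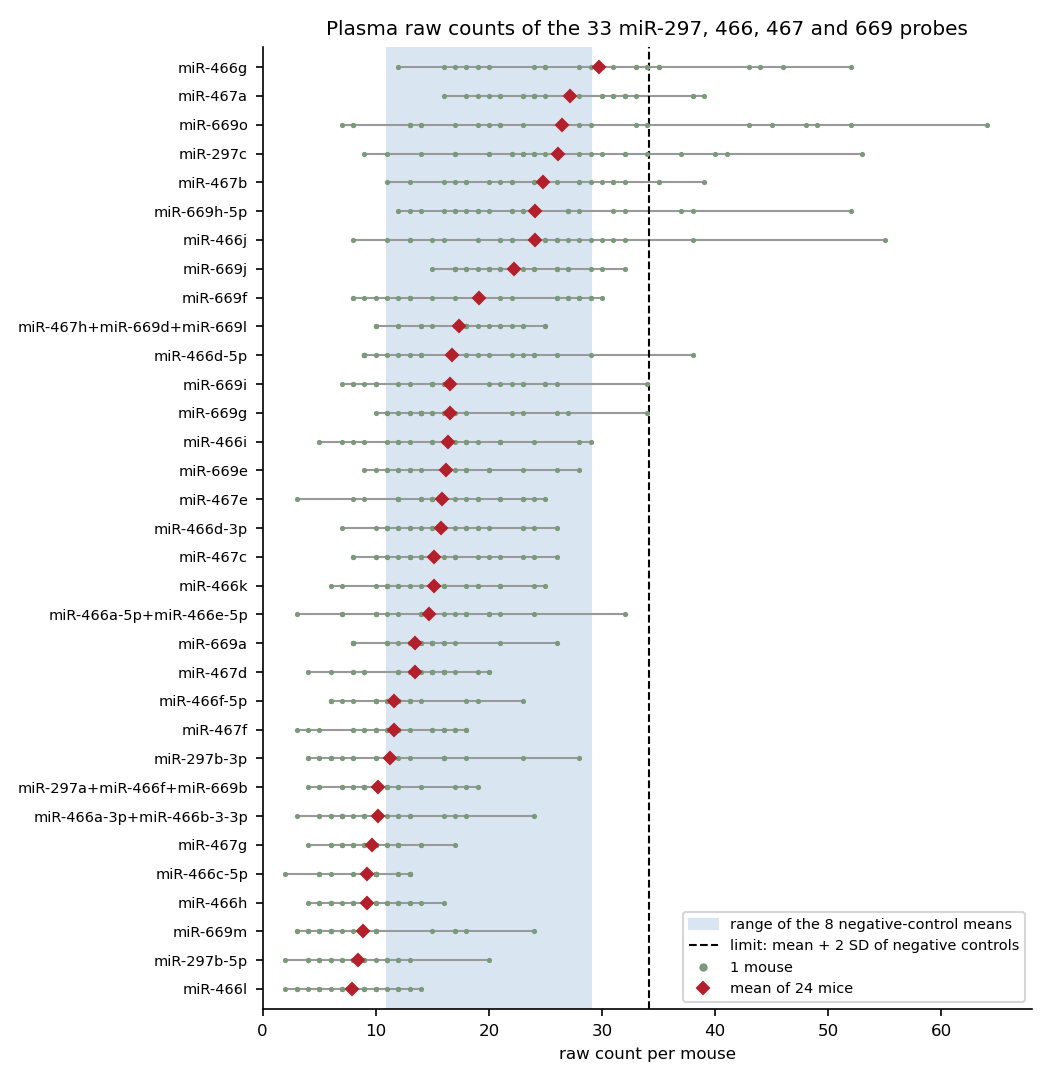
Raw counts of the 33 member probes in each mouse (dots, horizontal axis in counts), with the mean of 24 mice (diamonds), the range of the 8 negative-control means (shaded, 10.96 to 29.0) and the background limit of 34.1 counts (dashed line). All 33 means lie below the limit, the highest being miR-466g at 29.7 counts, and single mice of miR-669o reach 64.

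The counts of the members moved with the background probes from group to group. Averaged over the 33 members, raw counts per mouse were 17.4 ± 4.0 with filtered air, 17.0 ± 4.7 with EPFR lo and 14.2 ± 2.5 with EPFR (SD, n = 8 each). The negative controls averaged 18.4 ± 2.2, 18.0 ± 1.8 and 15.3 ± 1.6 counts in filtered air, EPFR lo and EPFR mice, and the viral probes 15.0 ± 2.1, 14.4 ± 2.5 and 12.4 ± 2.1. The lower mean of the EPFR mice was thus shared by probes designed for no mouse RNA. The ratio of the members to the negative controls was 0.94 ± 0.17 with filtered air, 0.94 ± 0.21 with EPFR lo and 0.92 ± 0.11 with EPFR.

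**Figure D2:**
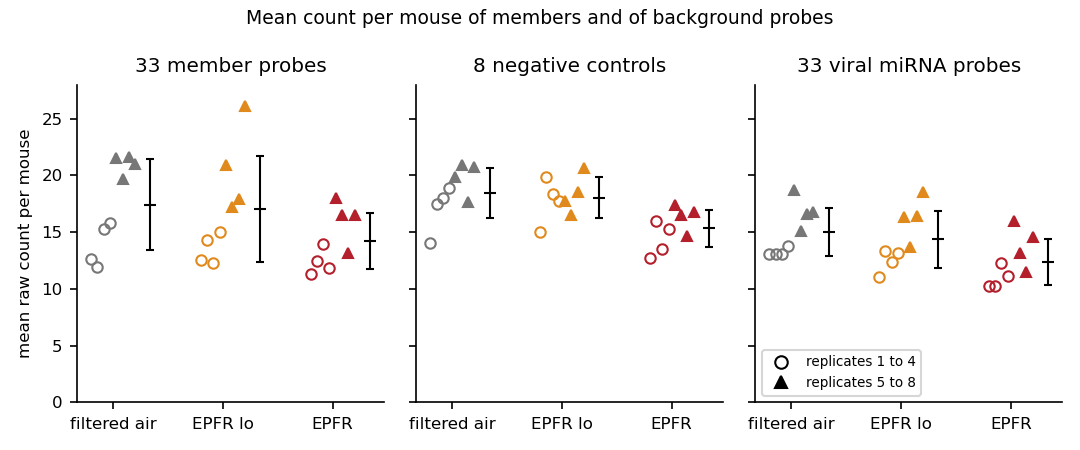
Mean raw count per mouse of the 33 members, the 8 negative controls and the 33 viral miRNA probes in filtered air, EPFR lo and EPFR mice (open circles, replicates 1 to 4; filled triangles, replicates 5 to 8; black bars, mean ± SD, n = 8). All 3 probe sets are lowest in EPFR mice, with means of 14.2, 15.3 and 12.4 counts.

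The comparison of EPFR with filtered air asks whether the particles of higher radical content changed plasma miRNA. No member passed an adjusted p of 0.05 in edgeR's quasi-likelihood test with Benjamini-Hochberg adjustment (0 of 33, against 4 of all 566 miRNA, 0.707%). At an unadjusted p under 0.05, 1 member was lower (7 of all 566, 1.24%) and 0 were higher (22 of all 566, 3.89%). The split of these unadjusted counts rests on the scaling, since library-size scaling gave 122 lower and 13 higher of all 566, with 11 and 0 members, and the top 100 miRNA gave 232 and 6, with 14 and 0 members. Of the 33 log2 fold changes, which compare counts after housekeeping scaling, 25 were negative (62.9% of all 566), with a median of -0.15 beside -0.09 for all 566 miRNA. The median was 0.03 with negative-control scaling, 0.05 with viral-probe scaling and 0.04 in limma on the deposited values, with 18, 19 and 20 members positive. By number, the medians were 0.11 for the 3 miR-297 probes, -0.13 for the 12 miR-466 probes, -0.14 for the 7 miR-467 probes and -0.36 for the 9 miR-669 probes. Of these, 1, 10, 5 and 8 probes were negative, in that order.

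The member with the smallest p was miR-669i, placed inside Sfmbt2. Its raw counts ran from 7 to 20 in EPFR mice (median 12.5), against 15 to 34 in filtered air mice (median 24). All 8 EPFR mice lay below the filtered air median, but the groups overlapped between 15 and 20 counts. In raw counts that tally was shared by miR-669g, miR-669j, miR-297b-3p and the probe of miR-466a-5p and miR-466e-5p. After housekeeping scaling it was 8 for miR-669i and miR-669g, and 5, 4 and 6 for the others, in that order. The means of miR-669i were 12.9 ± 4.1 counts in EPFR mice and 23.2 ± 6.2 in filtered air mice (SD, n = 8 each), beside 15.3 and 18.4 counts for the negative controls. The log2 fold change was -0.78 ± 0.31 (SE, 95% interval -1.40 to -0.17). The edgeR adjusted p was 0.496, while a two-sided exact permutation test of this 1 member gave p = 0.00886 without adjustment over miRNA (0.0014 on counts scaled by the positive controls). miR-669i passed the adjusted threshold under library-size scaling (-0.96, edgeR adjusted p = 0.0486) and in DESeq2 (-0.67, adjusted p = 0.0311).

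Other miR-669 members had negative fold changes that did not pass the test. miR-669g had 11 to 15 counts in EPFR mice (median 13.5), against 13 to 34 in filtered air mice (median 20). The EPFR values were tightly grouped, all 8 lay below the filtered air median, and the groups shared values of 13 and 14. Its log2 fold change was -0.52 ± 0.31 (SE, edgeR adjusted p = 0.991), and the exact permutation p was 0.0794 (0.00451 with positive-control scaling).

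miR-669o had 8 to 33 counts in EPFR mice (median 20), against 13 to 52 in filtered air mice (median 33), with wide overlap and a log2 fold change of -0.58 ± 0.31 (SE, edgeR adjusted p = 0.991). Its spread within filtered air was split by replicate number. Among replicates 5 to 8 it had 17 to 33 counts in EPFR mice against 43 to 52 in filtered air mice, and among replicates 1 to 4 it had 8 to 21 against 13 to 23. The ranges were apart in the first of these sets and overlapped in the second. The log2 fold change of miR-669o was -0.85 in replicates 5 to 8 and -0.01 in replicates 1 to 4 (edgeR adjusted p = 0.997 and 0.994).

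miR-669m (6.4 ± 3.2 counts in EPFR mice and 10.1 ± 5.7 in filtered air mice) and the probe shared by miR-466a-5p and miR-466e-5p (10.6 ± 3.9 and 16.4 ± 6.8) completed the 5 smallest p, with log2 fold changes of -0.56 ± 0.36 and -0.49 ± 0.33 (SE). Neither mean exceeded that of the negative controls. The member with the highest mean count went the other way, since miR-466g had 19 to 35 counts in EPFR mice (median 32) and 12 to 44 in filtered air mice (median 24.5). The filtered air range enclosed the EPFR range, and the log2 fold change of 0.42 ± 0.32 (SE) did not pass the test (edgeR adjusted p = 0.991).

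**Figure D3:**
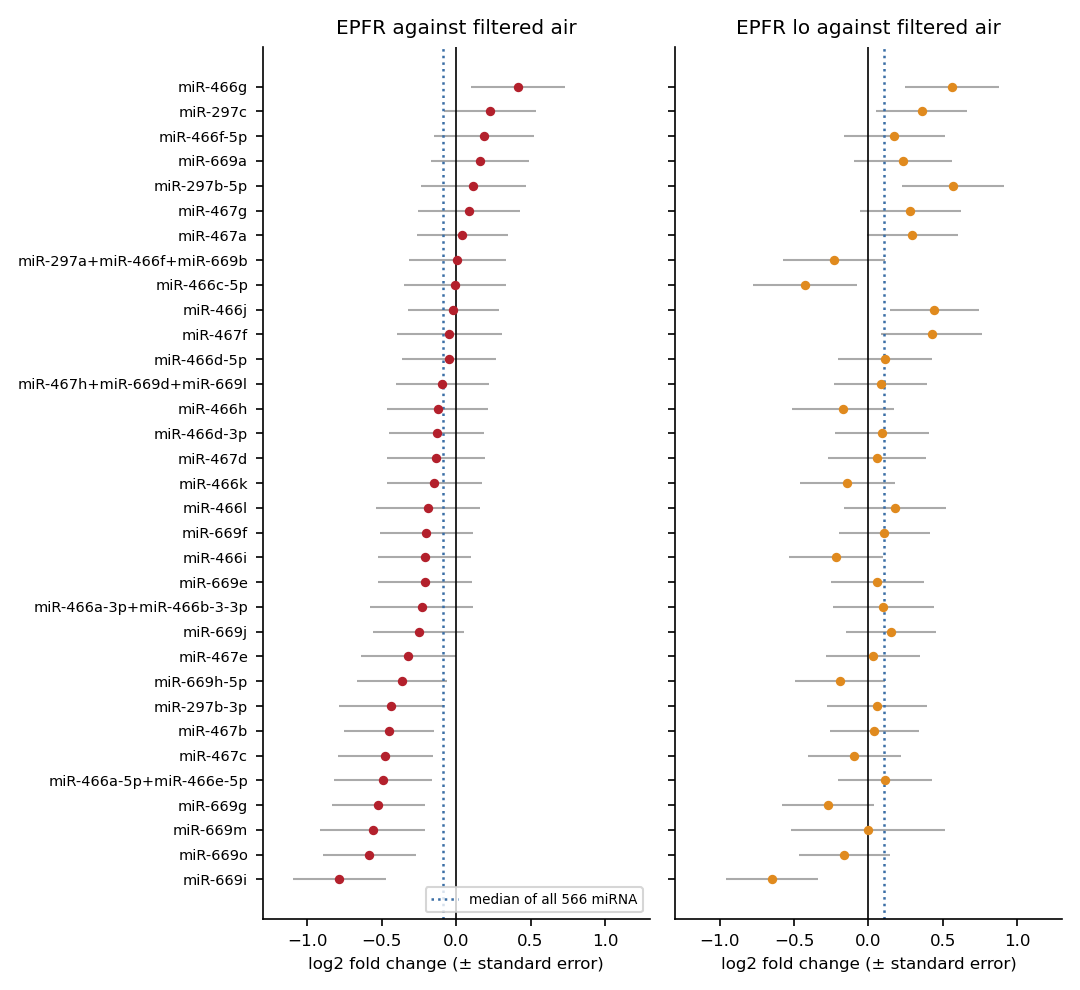
Log2 fold change (± SE, edgeR, housekeeping scaling, 8 mice per group) of the 33 members in EPFR against filtered air (left) and EPFR lo against filtered air (right), which share the filtered air mice, with the median of all 566 miRNA dotted. The left panel runs from -0.78 for miR-669i to 0.42 for miR-466g, and miR-669i is also the lowest on the right, at -0.65.

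The comparison of EPFR lo with filtered air asks the same question for the particles of lower radical content, and it uses the same filtered air mice. Again 0 of 33 members passed the adjusted threshold in edgeR, against 4 of all 566 miRNA (0.707%). At an unadjusted p under 0.05, 0 members were higher (25 of all 566, 4.42%) and 1 was lower, miR-669i, which was the only lower miRNA of all 566 (0.177%) under housekeeping scaling. Other scalings gave other splits, with 25 lower and 34 higher of all 566 with TMM, 19 and 31 in DESeq2, 111 and 12 with library-size scaling and 242 and 4 with the top 100 miRNA. The members' median log2 fold change was 0.08, beside 0.11 for all 566 miRNA, and 11 of the 33 were negative.

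miR-669i had 8 to 22 counts in EPFR lo mice (median 12.5), against 15 to 34 in filtered air mice (median 24). All 8 EPFR lo mice lay below the filtered air median in raw counts, with an overlap between 15 and 22 counts. After housekeeping scaling, 7 lay below the scaled filtered air median and 1 above it. The means were 13.6 ± 5.7 counts in EPFR lo mice and 23.2 ± 6.2 in filtered air mice (SD, n = 8 each), the log2 fold change was -0.65 ± 0.31 (SE, edgeR adjusted p = 0.825) and the exact permutation p was 0.0545 (0.00482 with positive-control scaling). The adjusted p fell below the threshold under TMM scaling (-0.77, adjusted p = 0.0445), library-size scaling (-1.10, 0.0270), scaling by the top 100 miRNA (-1.39, 0.0470) and in DESeq2 (-0.77, 0.00806). The low counts in both particle groups rest on the same 8 filtered air mice and are not 2 independent results.

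The other members among the 5 smallest p were miR-466g, miR-297b-5p, miR-466j and miR-467f, all with positive fold changes. miR-466g had 16 to 52 counts in EPFR lo mice (median 32.5), against 12 to 44 in filtered air mice (median 24.5), with a log2 fold change of 0.56 ± 0.31 (SE, edgeR adjusted p = 0.99957). The ranges overlapped almost throughout. miR-297b-5p had 5 to 20 counts in EPFR lo mice (median 10), against 2 to 12 in filtered air mice (median 7.5), and a log2 fold change of 0.57 ± 0.34 (SE). miR-466j (29.0 ± 13.1 counts in EPFR lo mice, 22.9 ± 7.7 in filtered air mice) and miR-467f (13.9 ± 3.7 and 11 ± 4.2), both placed outside Sfmbt2, had log2 fold changes of 0.44 ± 0.30 and 0.42 ± 0.34 (SE). These 4 members turned negative with scaling by the top 100 miRNA, under which all 33 members were negative. With library-size scaling miR-466j and miR-467f were negative too, and in replicates 5 to 8 alone miR-297b-5p was.

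**Figure D4:**
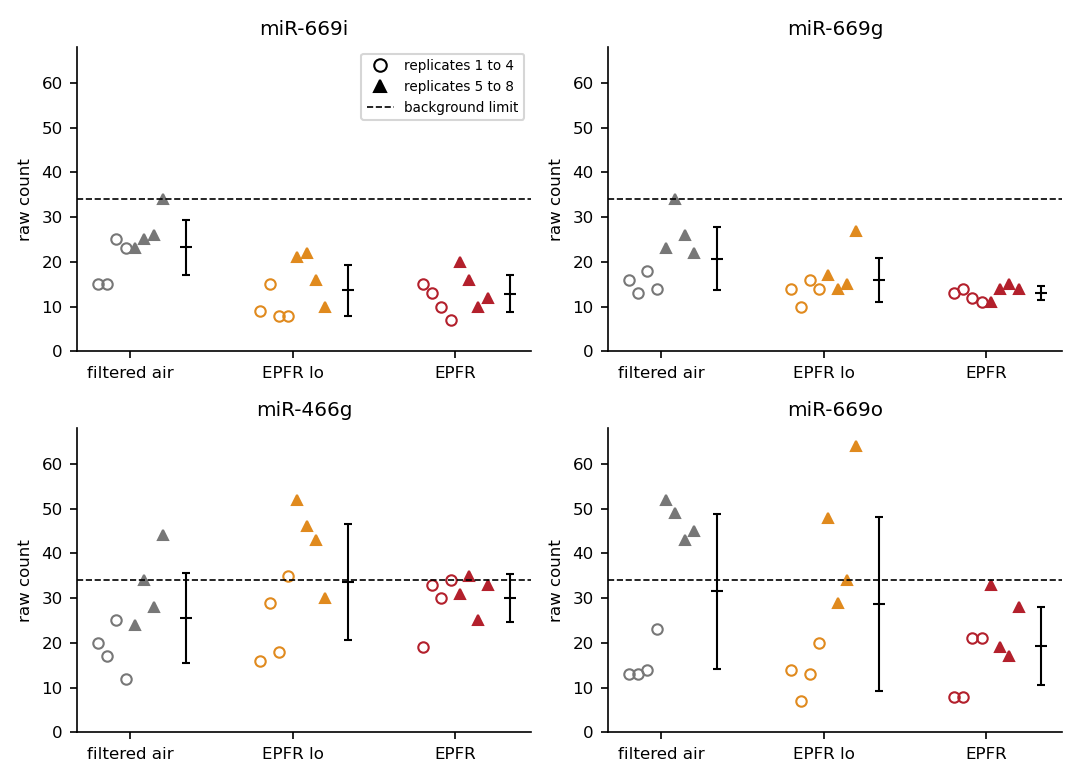
Raw counts per mouse of miR-669i, miR-669g, miR-466g and miR-669o in filtered air, EPFR lo and EPFR mice (open circles, replicates 1 to 4; filled triangles, replicates 5 to 8; black bars, mean ± SD, n = 8; dashed line, background limit of 34.1 counts). miR-669i has medians of 24, 12.5 and 12.5 counts across the groups, and miR-669o separates mainly by replicate set.

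The direct comparison of EPFR with EPFR lo asks whether radical content mattered at a matched particle level. It gave 0 called members of 33, against 1 of all 566 miRNA (0.177%), and 0 members at an unadjusted p under 0.05 in edgeR (3 of all 566 higher, 0.53%, and 11 lower, 1.94%). DESeq2 and limma also called 0 members, beside 1 and 0 of all 566. The median log2 fold change was -0.25 for the members and -0.18 for all 566, and 28 of 33 were negative (76.3% of all 566). The members' median turned to 0.03 with negative-control scaling, 0.02 with viral-probe scaling and 0.06 in replicates 5 to 8 alone, and was -0.65 in replicates 1 to 4 alone. The smallest p was that of the probe for miR-466a-5p and miR-466e-5p, with 7 to 18 counts in EPFR mice (median 10) and 10 to 32 in EPFR lo mice (median 16.5). Its groups overlapped between 10 and 18 counts, and the log2 fold change was -0.60 ± 0.33 (SE, 95% interval -1.25 to 0.04, edgeR adjusted p = 0.955; exact permutation p = 0.0402, not adjusted).

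miR-467b had 11 to 31 counts in EPFR mice (median 17.5), against 18 to 35 in EPFR lo mice (median 28.5), with a log2 fold change of -0.49 ± 0.31 (SE). miR-669m had 3 to 10 counts in EPFR mice (median 5.5), against 4 to 24 in EPFR lo mice (median 6.5), and a log2 fold change of -0.56 ± 0.36 (SE). Both members overlapped widely between the groups. miR-466j had a log2 fold change of -0.46 ± 0.30 (SE), with 20.2 ± 6.5 counts in EPFR mice and 29.0 ± 13.1 in EPFR lo mice. miR-297b-3p had 6 to 11 counts in EPFR mice (median 9), against 4 to 23 in EPFR lo mice (median 14), and a log2 fold change of -0.50 ± 0.35 (SE). The lower and narrower range of EPFR mice lay inside that of EPFR lo mice. miR-669i, the lowest member in both comparisons with filtered air, had a log2 fold change of -0.14 ± 0.33 here (SE, 95% interval -0.78 to 0.50), an interval that holds differences in either direction.

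The mice also differed by replicate number, across all exposures. The raw table lists replicates 1 to 4 of every group together and replicates 5 to 8 after them, while the sources used here do not say which mice were assayed together. For the positive controls, replicates 5 to 8 had 1533 ± 133 counts, against 1278 ± 99.9 for replicates 1 to 4 (SD of the geometric mean per mouse, n = 12 each). For the members these means were 19.2 ± 3.3 counts against 13.3 ± 1.5, and for the negative controls 18.1 ± 2.0 against 16.4 ± 2.3. The viral probes were also higher in replicates 5 to 8, at 15.6 ± 2.1 counts against 12.2 ± 1.3. So was the median count of all mouse miRNA, which averaged 14.75 ± 2.18 against 11 ± 1.04. Since each set holds 4 mice of every group, the sets cut across the exposures.

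miR-669o was the member that differed most between the sets. It had 17 to 64 counts in replicates 5 to 8 (median 38.5), against 7 to 23 in replicates 1 to 4 (median 13.5). The sets overlapped between 17 and 23 counts. The means were 38.4 ± 14.1 counts for replicates 5 to 8, against 14.6 ± 5.5 for replicates 1 to 4 (SD, n = 12 each), with a log2 difference of 1.01 ± 0.25 (SE, edgeR adjusted p = 0.00818; permutation p = 0.00090). It was the 1 member called of 33, beside 7 of all 566 miRNA (1.24%), under housekeeping scaling.

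This comparison was added after the data had been seen, and miR-669o was singled out in it for its values. With positive-control scaling 84 of 566 miRNA were called (14.8%), among them 5 members that were higher in replicates 5 to 8, namely miR-466d-5p, miR-669f, miR-669h-5p, miR-669m and miR-669o. Negative-control scaling called 5 members beside 61 miRNA in all (10.8%), and viral-probe scaling called 2, miR-669f and miR-669o, beside 41 (7.24%). TMM scaling called 4 beside 51 (9.01%), of which miR-669f and miR-669o were higher and miR-467e and miR-467f lower in replicates 5 to 8. miR-669o was called under all 5 scalings tried (log2 difference 0.91 to 1.10) and with any 1 mouse left out (0.90 to 1.16). Within filtered air, replicates 5 to 8 had 43 to 52 counts of it, against 13 to 23 for replicates 1 to 4. Within EPFR lo these ranges were 29 to 64 against 7 to 20, and within EPFR 17 to 33 against 8 to 21.

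**Figure D5:**
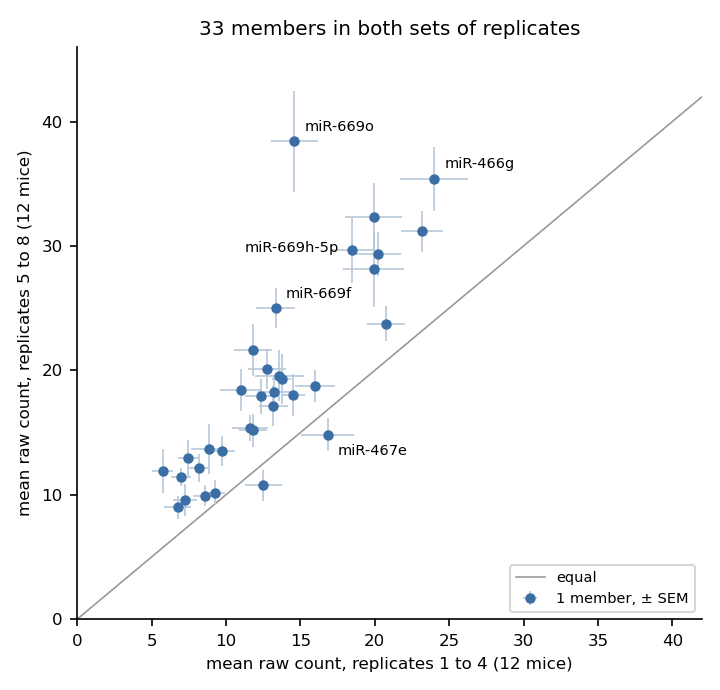
Mean raw count of each member in replicates 5 to 8 (vertical axis) and in replicates 1 to 4 (horizontal axis), with bars of 1 standard error over 12 mice each and a line of equality. Most members lie above the line, and miR-669o lies farthest from it, at 38.4 against 14.6 counts.

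Within each set of replicates, with 4 mice per group, edgeR called 0 members in any comparison. At an unadjusted p under 0.05 in replicates 5 to 8, 4 members were lower in EPFR than in filtered air (miR-669g, miR-669i, miR-669m and miR-669o), beside 11 of all 566 (1.94%), and 2 were lower in EPFR lo, beside 38 (6.71%). In replicates 1 to 4, 2 members were higher in EPFR lo than in filtered air, beside 53 of all 566 (9.36%), and 2 were lower in EPFR than in EPFR lo, beside 46 (8.13%). The median log2 fold change of the members in EPFR against filtered air was -0.19 in replicates 5 to 8 and -0.11 in replicates 1 to 4. In EPFR lo against filtered air it was -0.38 in replicates 5 to 8 and 0.49 in replicates 1 to 4, and all 566 miRNA moved likewise, at -0.27 and 0.53. miR-669i had negative log2 fold changes in both sets, at -0.77 in replicates 5 to 8 and -0.81 in replicates 1 to 4 for EPFR, and at -0.85 and -0.43 for EPFR lo. A test of whether the exposure effect differed between the sets called 0 of 33 members in edgeR, and 0 of all 566 miRNA, with a smallest member adjusted p of 0.293 for miR-297b-5p in EPFR lo. There, 3 members had an unadjusted p under 0.05, beside 82 of all 566 (14.5%).

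The order of the members was partly kept from mouse to mouse. Over the 33 members, the Spearman correlation of raw counts between 2 mice had a median of 0.598 across 276 pairs of mice, beside 0.467 over the 33 viral probes. The mice share the probes and the assay, which the viral probes also do without having a mouse target. Among clustered miRNA of another imprinted locus, Dlk1-Dio3, which also is active in the placenta, the median log2 fold change of 65 probes in EPFR against filtered air was -0.09, with 1 called higher. All 566 miRNA likewise had -0.09, with 4 called (0.707%). In EPFR lo against filtered air and EPFR against EPFR lo, the 65 probes had medians of 0.09 and -0.19, with 0 called. All 566 miRNA had 0.11 and -0.18 there, with 4 and 1 called.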

How the data were processed

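The authors purified RNA from plasma, ran each mouse alone on the nCounter mouse panel and deposited raw counts per probe, without scaling. They also deposited normalized values, a signal scale from nSolver in which the geometric mean of the negative controls was subtracted (floor of 1) and counts were scaled to positive controls and to Actb, B2m, Gapdh and Rpl19; 59.8% of the 792 member values lie at its floor. These factors were rebuilt from the raw counts and matched 100% of the deposited values within 2%. The authors' tables of fold changes and p-values were not used. The nSolver version is not stated.

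Raw counts of 566 mouse miRNA were tested with edgeR 4.0.16 (quasi-likelihood, R 4.3.3) over all 24 mice, group as factor, the rebuilt factor as scaling (0.576 to 1.66 per mouse), no filter, and Benjamini-Hochberg adjustment over all 566. "Higher" and "lower" calls mean an adjusted p under 0.05. Fold changes include background, so they understate changes of low miRNA. Exact permutation tests (two-sided, 8 against 8, 12870 regroupings, smallest p 0.000155) and the permutation test of 12 against 12 used log2(scaled count + 1). Alternatives were TMM, positive-control, top 100 and library-size scaling, DESeq2 1.42.0, limma 3.58.1 on the deposited values, a filter at the negative-control mean, blocks, and leaving out mice. Negative-control, viral-probe and raw housekeeping scaling, the removal of 4 mice at the housekeeping floor and the comparisons by replicate set were added after seeing the data. The scripts were tested on simulated data.

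Named members were the 6 with the highest mean, the 5 with the smallest p in each comparison and miR-669i. An earlier report on these data had named miR-669i. The members miR-669a, miR-466l and miR-466h were named outside this rule, for their known roles, after their values were available. Members, lists and rules were chosen with earlier results of these data known. Replicates are separate mice. Members had 7.88 to 29.7 counts on average, and their precision also depended on the scaling. For miR-467b between the replicate sets, the SE was 0.245 with housekeeping scaling and 0.124 with positive-control scaling.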

Additional observations from a re-analysis of the deposited data

Results flagged for a closer look

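Within each group of 8 mice, the highest and lowest raw counts of the named members were set against the others (42 groups tested), and 4 groups held a mouse that stood apart by Dixon's criterion. All 4 were the same mouse, EPFR lo replicate 8, which also had the highest total of all mice, 30483 counts of mouse miRNA. It had 52 counts of miR-669h-5p (next highest EPFR lo mouse 27), 27 of miR-669g (next 17), 32 of miR-466a-5p and miR-466e-5p (next 20) and 20 of miR-297b-5p (next 12). Chance flags about 1 in 20 groups, and the members of 1 mouse share its depth. Leaving out any 1 mouse, this one included, left 0 members called in each of the 3 comparisons.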

How the results depend on the processing

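With each mouse left out in turn, 0 members were called in any of the 3 comparisons and 0 lay above background. The background limit ran from 33.7 to 34.5 counts in these runs, beside a highest member mean of 29.7, so the second count could hardly change. The median log2 fold change of the members then ran from -0.33 to -0.05 (EPFR against filtered air), -0.07 to 0.17 (EPFR lo against filtered air, negative only without filtered air replicate 1) and -0.33 to -0.15 (EPFR against EPFR lo). The number above background was 10 of 33 with the limit at the mean of the negative controls (153 of 566 overall) and 4 with the limit from the viral probes (59 of 566). Members called numbered 1 (miR-669i) under library-size scaling and 1 in DESeq2 for EPFR against filtered air, and 1 with TMM, 2 (miR-669i, miR-669h-5p) with the top 100, 1 with library-size scaling and 1 in DESeq2 for EPFR lo against filtered air. Calls by replicate set numbered 5 with positive-control, 5 with negative-control, 2 with viral-probe and 4 with TMM scaling.

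The members' median was -0.67 with the top 100 miRNA for EPFR against filtered air, and -0.65 with the top 100 miRNA, -0.37 with library-size scaling and -0.38 in replicates 5 to 8 alone for EPFR lo against filtered air; all 566 miRNA shifted to -0.65 and -0.66 with the top 100 and to -0.37 and -0.36 with library size. Reversals were miR-669m at 0.0404 (EPFR, limma on deposited values), miR-466g at -0.0814 (EPFR) and -0.19 (EPFR lo), miR-297b-5p at -0.17, miR-466j at -0.39 and miR-467f at -0.30 with the top 100 in EPFR lo, miR-297b-5p at -0.15 and miR-467b at 0.0194 (EPFR against EPFR lo) in replicates 5 to 8 alone, and miR-466j at -0.063 and miR-467f at -0.0099 with library-size scaling in EPFR lo. miR-669i stayed negative in all alternatives of both comparisons (-1.35 to -0.55 for EPFR, -1.39 to -0.43 for EPFR lo). These alternatives draw on the same mice from which miR-669i was singled out, so they add no independent support. Nor was any reason for the shifts and reversals examined.

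Over all 566 miRNA, EPFR calls numbered 4 in the main test, 7 with library-size scaling, 9 in DESeq2 and 0 in limma (41 at an unadjusted p under 0.05); EPFR lo calls numbered 4, 6, 12 and 0 (43 unadjusted), 14 with the top 100, 2 with positive controls and 0 without the 3 mice whose housekeeping probes were at background. Same-numbered mice were at most weakly correlated. The correlation of their deviations ran from -0.092 to 0.28 (median 0.070), with 9 of 24 pairs over 0.1. For 7 of 24 mice, the best-correlated mouse of another group had the same number. In each other group 1 of 8 mice has that number, so chance alone would give fewer matches on average. A replicate block called 0 members in each comparison (medians -0.14, 0.10 and -0.24) and 2, 7 and 1 of all miRNA. With counts of 7.88 to 29.7 near background, small changes were not detectable.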
